A study of Mus musculus with 12 samples.

Results

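The 10 genes described here encode chemokines that recruit myeloid cells and T cells: Ccl2, Ccl5, Ccl7, Ccl9, Ccl20, Cxcl1, Cxcl2, Cxcl5, Cxcl12 and Cx3cl1. They were taken by name from the 55487 genes of a count table, matched by Ensembl identifier, and 9 of them passed the filter on low counts, which left 14509 genes for testing. Ccl20 did not pass and is given as counts. The RNA came from SCC7 cells, a mouse squamous carcinoma line of wild-type genotype per the labels, kept for 24 h in medium conditioned by mouse bone-marrow-derived macrophages. The macrophages had been treated for 24 h with 20 ng/ml interferon-gamma (M1 CM), with 20 ng/ml interleukin-4 (M2 CM), with medium holding 75% SCC7-conditioned medium (TAM CM, for tumour-associated macrophages) or with control medium (M0 CM). Each medium had 3 libraries, 12 in all. Cytokine or SCC7 medium carried over with the macrophage medium cannot be told apart from macrophage products in this design.

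Library totals ran from 18996937 to 22596630 counts, and levels are given as CPM, counts scaled to a common library size with TMM factors. Whether replicates were grown as separate cultures is not stated, and a p-value here reflects only the spread between libraries, which may be technical. In bulk RNA, fewer cells that express a gene and less RNA per cell cannot be told apart. M2 CM replicate 3 is described as melanoma, although its cell line is given as SCC7, and the members' log2 fold changes that involve M2 CM were also computed without it. Of 13 squamous epithelial markers, Krt6a, Epcam, Dsg3 and Perp had no counts in any library, and Krt5, Krt14 and Cdh1 were each below 0.1 CPM in every group. In all, 6 of the 13 reached 1 CPM in some medium. The keratin Krt8 stood at 129 ± 1.52 CPM in M1 CM, 453 ± 20.5 in M2 CM, 63.6 ± 2.27 in TAM CM and 267 ± 8.57 in M0 CM (SD, n = 3 each). Krt18 was at 38.8 ± 1.66 CPM in M1 CM, 263 ± 19.2 in M2 CM, 31.3 ± 3.35 in TAM CM and 105 ± 6.8 in M0 CM. Trp63 was at 1.79 CPM, Dsp at 1.55 and Pkp1 at 2.39 in M0 CM, and Sfn at 1.54 in TAM CM. The libraries thus held simple keratins while the basal keratins of the labelled cell type were at or near 0. Of 18 macrophage markers, C1qa, C1qb, C1qc, Ccr2 and Tyrobp had no counts in any library, and 5 reached 1 CPM in some medium. Their sum ran from 35.1 to 41.0 CPM in M1 CM, from 22.7 to 25.6 in M2 CM, from 41.7 to 51.3 in TAM CM and from 23.4 to 24.7 in M0 CM, most of it the lipopolysaccharide co-receptor gene Cd14.

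Chemokines are small secreted proteins that bind G protein-coupled receptors on leukocytes and guide their migration. Ccl2 and Ccl7 act on CCR2 of monocytes, mouse Ccl9 on CCR1, and Ccl20 on CCR6, while Ccl5 attracts T cells and macrophages. Cxcl1, Cxcl2 and Cxcl5 belong to the group that attracts neutrophils through CXCR2, Cxcl12 is the ligand of CXCR4, and Cx3cl1 is made as a membrane-bound protein that can be shed. Tumour cells are a known source of several of these proteins, and NF-kB, interferon signalling and mRNA decay through AU-rich elements are textbook controls of the inducible ones.

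Promoter windows of 300 bases, 250 before the transcription start and 50 after it, were at hand for 6 of the 10 genes in RefSeq's annotation of GRCm38.p6, the mm10 assembly. The window of 4 of them, Ccl9, Ccl20, Cxcl1 and Cxcl2, held the kappa-B consensus bound by NF-kB, searched on both strands, beside 8.46% of all 32851 windows of that length. They are shown because 3 of these genes were tested below. Cxcl1 and Cxcl2 rose over M0 CM in every other medium, and Ccl9 had a different profile. Ccl2 and Ccl5 also rose in each of these media. No window was at hand for Ccl2, Ccl5, Ccl7 and Cxcl5, so no motif was searched in them. The matched bases are in capitals, read 5′ to 3′ on the strand of the gene.
Cxcl1 (chr5:90890995-90891294, plus strand): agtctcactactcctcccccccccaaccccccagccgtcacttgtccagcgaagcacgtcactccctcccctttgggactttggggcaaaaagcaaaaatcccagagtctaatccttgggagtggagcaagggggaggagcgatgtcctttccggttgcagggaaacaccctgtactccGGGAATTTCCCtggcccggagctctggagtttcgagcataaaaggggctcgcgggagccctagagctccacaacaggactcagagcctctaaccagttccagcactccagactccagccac
Cxcl2 (chr5:90903649-90903948, plus strand): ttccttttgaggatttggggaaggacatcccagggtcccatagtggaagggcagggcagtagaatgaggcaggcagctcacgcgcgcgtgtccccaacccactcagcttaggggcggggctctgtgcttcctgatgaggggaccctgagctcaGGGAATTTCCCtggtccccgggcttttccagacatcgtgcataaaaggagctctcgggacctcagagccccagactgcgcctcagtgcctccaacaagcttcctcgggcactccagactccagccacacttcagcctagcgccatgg
Ccl9 (chr11:83578587-83578886, minus strand): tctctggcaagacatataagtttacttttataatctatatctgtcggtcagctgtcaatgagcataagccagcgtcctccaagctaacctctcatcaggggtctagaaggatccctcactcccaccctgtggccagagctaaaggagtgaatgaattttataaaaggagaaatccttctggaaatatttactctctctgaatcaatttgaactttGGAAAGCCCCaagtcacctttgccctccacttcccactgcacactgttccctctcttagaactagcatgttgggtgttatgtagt
Ccl20 (chr1:83116516-83116815, plus strand): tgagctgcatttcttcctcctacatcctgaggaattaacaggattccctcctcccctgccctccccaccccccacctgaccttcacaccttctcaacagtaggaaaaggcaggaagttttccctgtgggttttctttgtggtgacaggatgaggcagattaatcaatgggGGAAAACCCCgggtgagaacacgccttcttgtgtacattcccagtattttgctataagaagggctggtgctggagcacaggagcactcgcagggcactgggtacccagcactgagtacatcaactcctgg

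In Cxcl1 and Cxcl2 the capitals cover the same 11 letters, a match on each strand that overlaps the other by all but 1 base, at -71 to -61 in Cxcl1 and at -97 to -87 in Cxcl2, where base 0 is the first transcribed base. Ccl9 had its match on the opposite strand at -35 to -26, and Ccl20 at -80 to -71. The windows of Cxcl12 and Cx3cl1 did not hold these letters. The STAT motif TTCNNNGAA was in 0 of the 6 windows, beside 8.3% of all windows, and its form with 1 more base in the middle was in 0, beside 6.95%. The interferon-response motif, a pair of GAAA parted by NN, was in 0, beside 3.44%. Each was searched on both strands. The AP-1 motif TGANTCA, which reads the same on both strands, was in 1 of the 6, that of Ccl9, beside 7.81% of all. These are matches of letters and not measured binding.

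The 3′ untranslated regions differed in AU-rich sites. The nonamer TTATTTATT was found 4 times in Cxcl2, 2 times in Cxcl1 and 1 time in Cx3cl1, and in none of the other 7 genes, beside 8.44% of 11886 tested genes with such a region. The first site of each is shown with its flanks, the nonamer in capitals.
Cxcl2: gagttcacTTATTTATTtatctatg
Cxcl1: ttatgtatTTATTTATTccacaaag
Cx3cl1: gtgaacaaTTATTTATTggattccc

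The shorter pentamer ATTTA was in 9 of the 10 genes and in 70.3% of tested genes. It occurred 11 times in Cxcl2, 9 times in Ccl20, 7 times in Cxcl1 and 0 times in Ccl5, whose 3′ untranslated region of 199 bases was the shortest of the 10.

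Against M0 CM, the 3 other media gave 3 different chemokine profiles. In M1 CM 6 of the 9 tested genes rose and 2 fell, while 53.4% of all tested genes were called in either direction (27.7% higher and 25.6% lower). In M2 CM 7 rose and 1 fell, while 39.4% of all tested genes were called (21% higher and 18.5% lower). In TAM CM 5 rose and 4 fell, while 70% of all tested genes were called (35.1% higher and 34.9% lower). Ccl2, Ccl5, Cxcl1 and Cxcl2 rose and Cx3cl1 fell in each of the 3 media. The remaining 4 tested genes, Ccl7, Ccl9, Cxcl5 and Cxcl12, differed in direction or call between the media. The 3 comparisons share the M0 CM libraries and are not independent of each other.

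The libraries of the 2 media did not overlap for 8 of the 9 genes in M1 CM against M0 CM (58.8% of all tested genes), for 8 in M2 CM (49.5%) and for 9 in TAM CM (73.1%). Calls that also reached a 2-fold difference were 7 of the 9 in M1 CM, beside 8.55% of all tested genes. In M2 CM there were 5, beside 3.25%, and in TAM CM 5, beside 19%. The 9 genes had a median log2 fold change of 1.99 for M1 CM, 1.62 for M2 CM and 0.45 for TAM CM, while the median over all tested genes lay between -0.003 and 0.012 in the 3 comparisons. Cxcl2 passed the filter with 8 counts in all of M0 CM, so a difference in it was needed for it to be tested. The members, and the gene lists below, were chosen with earlier results of these data known. Their shares and medians are therefore no independent comparison with all tested genes.

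**Figure D1:**
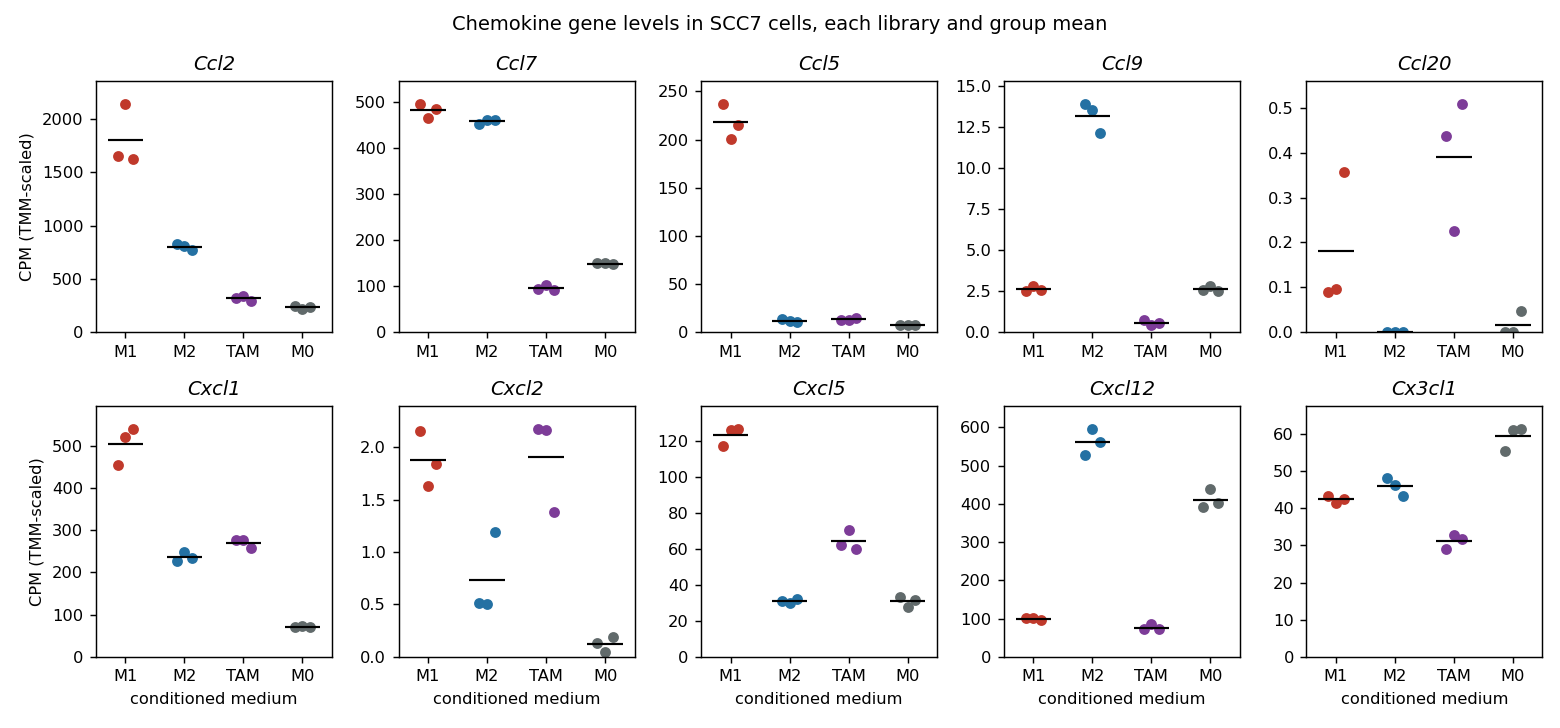
Level of each of the 10 chemokine genes in CPM, on a linear axis that starts at 0, in each library (points) with the group mean (line), in M1, M2, TAM and M0 conditioned medium. Ccl5 stands at 201 CPM or more in the M1 CM libraries and below 15 CPM in the other 9, Ccl9 is highest in M2 CM, and Cxcl12 is near 100 CPM or lower in M1 CM and TAM CM.

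**Figure D2:**
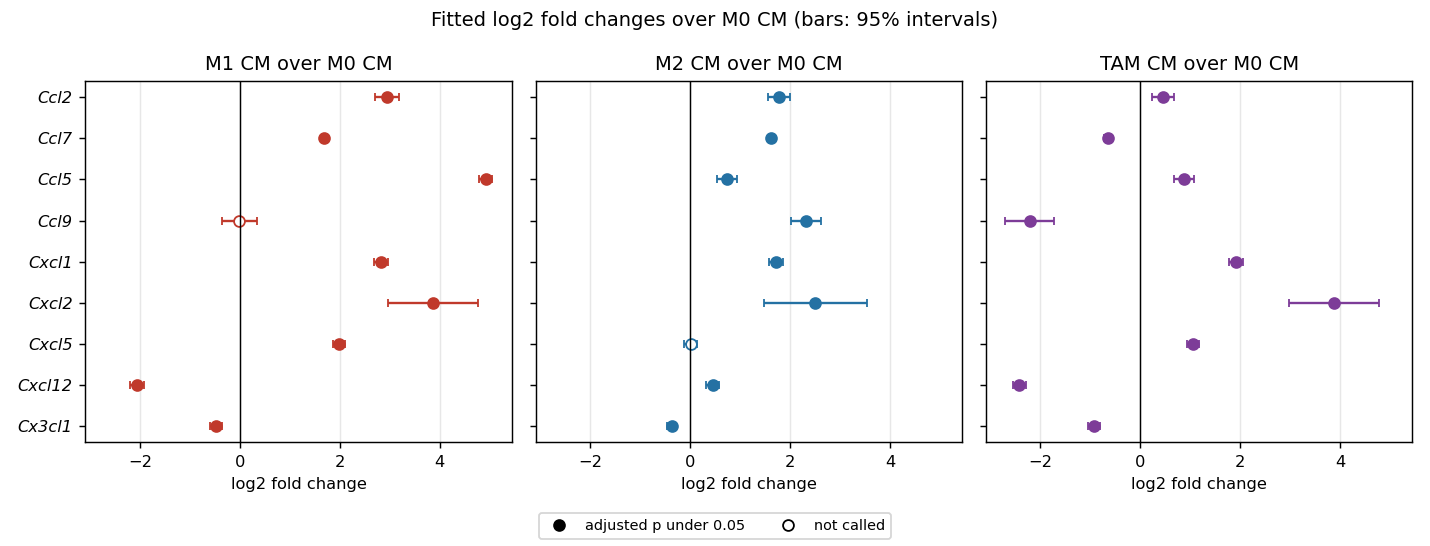
Log2 fold change over M0 CM of the 9 tested genes, with bars for 95% intervals and filled points for an adjusted p under 0.05. Cxcl1 and Cxcl2 lie right of 0 in each panel, Cx3cl1 lies left of 0 in each, and Ccl9 lies on either side of 0 in M2 CM and TAM CM.

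The monocyte attractants Ccl2 and Ccl7 lie next to each other on chromosome 11, with starts 10.1 kb apart. Ccl2 (ENSMUSG00000035385, chr11:82035571-82037453 in mm10) was at 1649, 2143 and 1621 CPM in M1 CM, at 831, 807 and 772 in M2 CM, at 323, 342 and 293 in TAM CM, and at 244, 222 and 234 in M0 CM. No medium overlapped another, and the second M1 CM library stood above the other two of its group. The log2 fold change of Ccl2 over M0 CM was 2.95 (SE 0.12, adjusted p = 2.61e-08) in M1 CM, 1.78 (SE 0.11, adjusted p = 1.91e-06) in M2 CM and 0.45 (SE 0.11, adjusted p = 0.00659) in TAM CM. Adjusted p-values are from edgeR's quasi-likelihood test and were adjusted over the tested genes by the Benjamini-Hochberg method.

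Ccl7 (ENSMUSG00000035373, chr11:82045712-82047525) shared the rise in M1 CM and M2 CM but not the rise in TAM CM. Its level was 496, 466 and 484 CPM in M1 CM, 452, 462 and 462 in M2 CM, 93.4, 102 and 92.2 in TAM CM, and 149.5, 149.9 and 148 in M0 CM. The M1 CM and M2 CM libraries lay close together, those of TAM CM lay below those of M0 CM, and no 2 media overlapped. Ccl7 was 3.23-fold higher in M1 CM (log2 fold change 1.69, SE 0.03, adjusted p = 1.92e-39) and 3.07-fold higher in M2 CM (1.62, SE 0.03, adjusted p = 9.01e-38). In TAM CM it fell by 35.6% (log2 fold change -0.64, SE 0.04, adjusted p = 8.15e-21).

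Ccl5, a T cell and macrophage attractant (ENSMUSG00000035042, chr11:83525778-83530518), had the largest fold of the 9 genes in M1 CM. It was at 237, 201 and 215 CPM in M1 CM, 13.3, 11.9 and 10.8 in M2 CM, 12.1, 13.1 and 14.2 in TAM CM, and 7.01, 7.11 and 7.47 in M0 CM. Each M1 CM library was far above the other 9, the M2 CM and TAM CM libraries overlapped, and both lay above M0 CM. Ccl5 rose 30.2-fold in M1 CM (log2 fold change 4.92, SE 0.07, adjusted p = 1.26e-36), 1.67-fold in M2 CM (0.74, SE 0.10, adjusted p = 1.82e-07) and 1.83-fold in TAM CM (0.87, SE 0.10, adjusted p = 9.54e-10).

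Ccl9, a ligand of CCR1 in the mouse (ENSMUSG00000019122, chr11:83572919-83578636), moved in M2 CM and TAM CM. It was at 2.52, 2.79 and 2.56 CPM in M1 CM, 13.9, 13.5 and 12.1 in M2 CM, 0.764, 0.407 and 0.560 in TAM CM, and 2.59, 2.83 and 2.51 in M0 CM. M1 CM and M0 CM overlapped, every M2 CM library was above them and every TAM CM library below. It rose 4.98-fold in M2 CM (log2 fold change 2.32, SE 0.15, adjusted p = 2.09e-18) and fell by 78.4% in TAM CM (log2 fold change -2.21, SE 0.25, adjusted p = 4.28e-11). In M1 CM its log2 fold change was -0.01, with a 95% interval from -0.37 to 0.34 (adjusted p = 0.967).

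The TAM CM level of Ccl9 rests on 14, 9 and 11 counts. Macrophages are a known source of Ccl9, and single macrophage markers moved in different directions: the lysosomal gene Cd68 was at 5.03 ± 0.265 CPM in M2 CM, 2.89 ± 0.827 in TAM CM and 3.89 ± 0.362 in M0 CM, and the mannose receptor gene Mrc1 at 1.90 ± 0.424 in M2 CM, 0.725 ± 0.155 in TAM CM and 0.681 ± 0.0386 in M0 CM. Cd14 was at 15.9 ± 1.09 CPM in M2 CM, 40.9 ± 3.80 in TAM CM and 17.3 ± 0.898 in M0 CM. The part of such RNA in the Ccl9 levels was not tested. Of 2996 stretches of 50 bases in Ccl9 transcripts, 1.97% also occur in other genes.

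Ccl20, the CCR6 ligand (ENSMUSG00000026166, chr1:83116766-83119167), was close to the limit of detection. It had 2, 2 and 7 counts in M1 CM, 0 in each M2 CM library, 8, 5 and 10 in TAM CM, and 0, 0 and 1 in M0 CM. Its 23 counts in TAM CM, against 1 in M0 CM, gave a ratio of 24.6 (exact 95% interval 4.0 to 1020, for counting error alone). The M2 CM libraries had no counts, and set against a floor of 3 counts over that group the TAM CM level was 7.98-fold higher. This value leaves out the counting error of the 23 counts. The 11 counts in M1 CM, against 1 in M0 CM, gave a ratio of 11.3 (interval 1.64 to 487).

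The neutrophil attractants Cxcl1, Cxcl2 and Cxcl5 lie in 1 stretch of chromosome 5. Cxcl1 (ENSMUSG00000029380, chr5:90891241-90893115) was at 454, 521 and 541 CPM in M1 CM, 226, 249 and 235 in M2 CM, 277, 277 and 257 in TAM CM, and 71.0, 73.3 and 70.8 in M0 CM. Every library of the 3 other media was above M0 CM, and M1 CM was above the rest. The rise of Cxcl1 was 7.05-fold in M1 CM (log2 fold change 2.82, SE 0.07, adjusted p = 8.57e-13), 3.3-fold in M2 CM (1.72, SE 0.07, adjusted p = 4.33e-10) and 3.77-fold in TAM CM (1.92, SE 0.07, adjusted p = 2.34e-11).

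Cxcl2 (ENSMUSG00000058427, chr5:90903871-90905938) rose in the same 3 media. It was at 2.16, 1.63 and 1.84 CPM in M1 CM, 0.511, 0.502 and 1.19 in M2 CM, 2.18, 2.17 and 1.38 in TAM CM, and 0.128, 0.0497 and 0.193 in M0 CM. The M1 CM and TAM CM libraries overlapped, those of M2 CM lay between them and M0 CM, and the third M2 CM library was the highest of its group. Its log2 fold change was 3.86 (SE 0.46, adjusted p = 3.65e-10) in M1 CM, 2.51 (SE 0.53, adjusted p = 0.000139) in M2 CM and 3.88 (SE 0.46, adjusted p = 1.51e-10) in TAM CM. The M0 CM mean rests on 3, 1 and 4 counts, so the size of these folds is uncertain. Without the third M2 CM library the M2 CM value was 1.97 (adjusted p = 0.00797). Of 2159 stretches of 50 bases in Cxcl2 transcripts, 5.84% also occur in Cxcl3. Whether reads from such stretches were assigned to the right gene was not measured.

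Cxcl5 (ENSMUSG00000029371, chr5:90759360-90761624) rose in M1 CM and TAM CM. It was at 117, 126 and 127 CPM in M1 CM, 31.2, 30.2 and 32.0 in M2 CM, 62.2, 70.6 and 59.7 in TAM CM, and 33.1, 27.9 and 31.8 in M0 CM. The M2 CM libraries fell within the range of M0 CM, and both were below TAM CM. The rise was 3.98-fold in M1 CM (log2 fold change 1.99, SE 0.06, adjusted p = 6.28e-27) and 2.07-fold in TAM CM (1.05, SE 0.06, adjusted p = 5.97e-18). In M2 CM the log2 fold change was 0.01, with a 95% interval from -0.12 to 0.14 (adjusted p = 0.959).

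Cxcl12, the CXCR4 ligand that is known for its constitutive expression in stroma (ENSMUSG00000061353, chr6:117168535-117181367), moved in the opposite direction to most of the inducible genes in M1 CM. It was at 100.3, 102 and 95.7 CPM in M1 CM, 527, 597 and 563 in M2 CM, 72.3, 85.0 and 72.3 in TAM CM, and 391, 439 and 402 in M0 CM. No 2 media overlapped, with TAM CM lowest and M2 CM highest. It fell by 75.8% in M1 CM (log2 fold change -2.05, SE 0.07, adjusted p = 7.94e-10) and fell by 81.3% in TAM CM (-2.42, SE 0.07, adjusted p = 1.06e-10). In M2 CM it rose 1.37-fold (log2 fold change 0.45, SE 0.07, adjusted p = 0.000249). The summed level of 9 fibroblast markers, most of it collagen genes, ran from 1444 to 1542 CPM in M1 CM, from 1471 to 1496 in M2 CM, from 1148 to 1203 in TAM CM and from 2505 to 2651 in M0 CM. The single markers differed. Col1a1, Col1a2, Col3a1 and Pdgfrb were highest in M0 CM. Dcn was at 12.5 CPM in M1 CM, 4.1 in M2 CM, 16.9 in TAM CM and 2.82 in M0 CM. Pdgfra was at 263 CPM in M1 CM, 168 in M2 CM, 319.7 in TAM CM and 236 in M0 CM. Lum and Thy1 had no counts in any library, and Fap had 3 in all. The part of such RNA in the Cxcl12 levels was not tested.

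Cx3cl1, the membrane-bound ligand of CX3CR1 (ENSMUSG00000031778, chr8:94772009-94782427), had the smallest ratio of highest to lowest group mean of the 9 tested genes. It was at 43.3, 41.4 and 42.6 CPM in M1 CM, 48.2, 46.3 and 43.2 in M2 CM, 29.1, 32.7 and 31.7 in TAM CM, and 55.4, 61.2 and 61.5 in M0 CM. Every library of the 3 other media was below M0 CM, and M1 CM and M2 CM overlapped. Cx3cl1 fell by 28.5% in M1 CM (log2 fold change -0.48, SE 0.06, adjusted p = 1.41e-10), fell by 22.6% in M2 CM (-0.37, SE 0.05, adjusted p = 2.06e-07) and fell by 47.3% in TAM CM (-0.93, SE 0.06, adjusted p = 7.43e-20).

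Set against M1 CM, TAM CM had 8 of the 9 genes lower and 0 higher, while 67.2% of all tested genes were called (32.8% higher and 34.4% lower). Of the 9 genes 8 did not overlap between the 2 media (69.5% of all tested genes), and 4 were called with at least a 2-fold difference (15.1%). The log2 fold change was -4.05 (SE 0.06, adjusted p = 3.18e-35) for Ccl5, -2.50 (SE 0.12, adjusted p = 4.6e-08) for Ccl2 and -2.33 (SE 0.04, adjusted p = 7.76e-45) for Ccl7. The neutrophil attractants were closer, at -0.90 (SE 0.06, adjusted p = 2.46e-08) for Cxcl1 and -0.94 (SE 0.05, adjusted p = 4.13e-18) for Cxcl5. Cxcl2 did not pass the test, with a log2 fold change of 0.02 and a 95% interval from -0.54 to 0.58 (adjusted p = 0.951). Ccl9, Cxcl12 and Cx3cl1 were also lower in TAM CM than in M1 CM, by log2 fold changes of -2.20, -0.37 and -0.44.

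Set against M2 CM, TAM CM had 3 of the 9 genes higher and 5 lower, while 68.4% of all tested genes were called (34.3% higher and 34.1% lower). Of the 9, 8 did not overlap (71.3% of all tested genes), and 6 were called with at least a 2-fold difference (17.4%). The 3 CXCR2 ligands were higher in TAM CM, with log2 fold changes of 1.37 (SE 0.33, adjusted p = 0.000258) for Cxcl2, 1.05 (SE 0.06, adjusted p = 9.04e-18) for Cxcl5 and 0.19 (SE 0.06, adjusted p = 0.014) for Cxcl1. The Cxcl1 call did not hold when the second TAM CM library was left out (adjusted p = 0.0608) or when no TMM factors were used (adjusted p = 0.0527). Lower in TAM CM were Ccl9 (log2 fold change -4.53, SE 0.20, adjusted p = 5.88e-26), Cxcl12 (-2.87, SE 0.07, adjusted p = 2.44e-11), Ccl7 (-2.25, SE 0.04, adjusted p = 9.88e-44), Ccl2 (-1.33, SE 0.11, adjusted p = 4.42e-06) and Cx3cl1 (-0.56, SE 0.06, adjusted p = 8.84e-12). Ccl5 did not pass, with a log2 fold change of 0.13 and a 95% interval from -0.05 to 0.31 (adjusted p = 0.199).

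Set against M1 CM, M2 CM had 5 of the 9 genes lower and 2 higher, while 56.2% of all tested genes were called (27.8% higher and 28.4% lower). Of the 9, 8 did not overlap (59.8% of all tested genes), and 7 were called with at least a 2-fold difference (8.97%). Ccl5 differed most, with a log2 fold change of -4.18 (SE 0.07, adjusted p = 1.87e-35). Cxcl5, Cxcl2, Ccl2 and Cxcl1 were lower in M2 CM by log2 fold changes of -1.99, -1.35, -1.17 and -1.09. Cxcl12 and Ccl9 were higher, with log2 fold changes of 2.50 (SE 0.07, adjusted p = 1.21e-10) and 2.33 (SE 0.15, adjusted p = 5.07e-19). Ccl7 had a log2 fold change of -0.07 (95% interval -0.14 to -0.01, adjusted p = 0.0577), which passed without the second M1 CM library (adjusted p = 0.0135) and with a filter of 1 CPM in 3 libraries (adjusted p = 0.0457). Cx3cl1 had 0.11 (95% interval 0.00 to 0.22, adjusted p = 0.0836) and passed without the third M2 CM library (adjusted p = 0.0388). For the 8 genes other than Cxcl2, leaving out that library moved no log2 fold change that involves M2 CM by more than 0.07. For Cxcl2 it gave 1.91 for TAM CM against M2 CM and -1.89 for M2 CM against M1 CM.

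**Figure D3:**
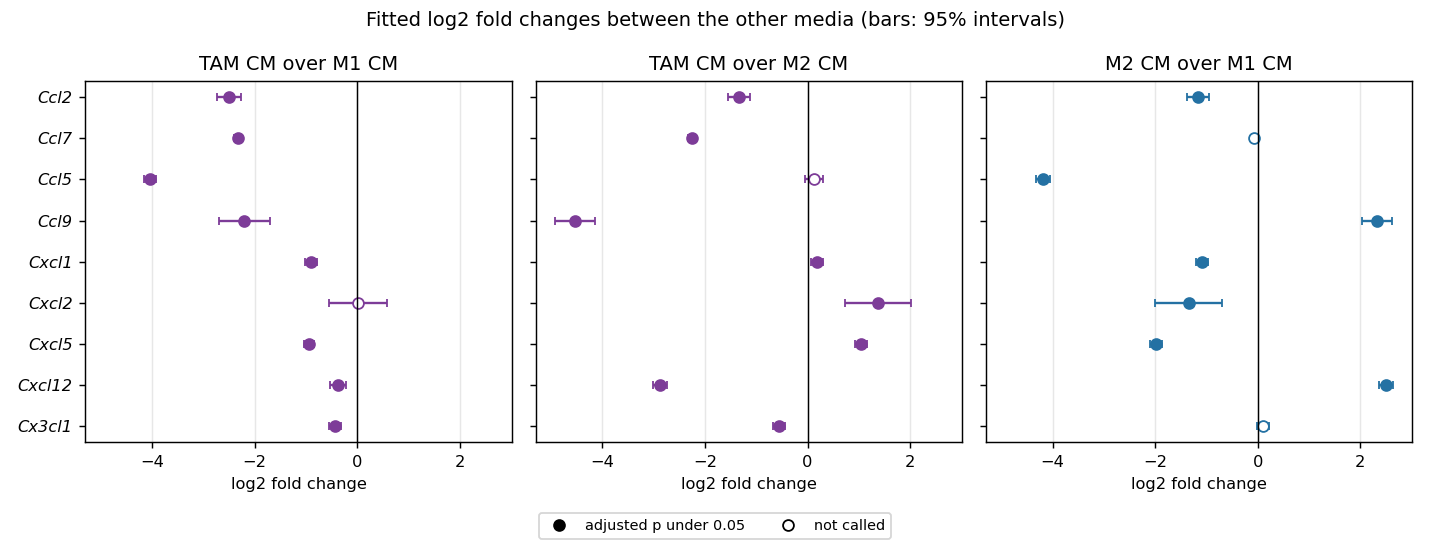
Log2 fold change of the 9 tested genes for TAM CM over M1 CM, TAM CM over M2 CM and M2 CM over M1 CM, with bars for 95% intervals and filled points for an adjusted p under 0.05. In the TAM CM over M2 CM panel the 3 CXCR2 ligands lie right of 0 and Ccl2, Ccl7, Ccl9, Cxcl12 and Cx3cl1 lie left of it.

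Levels of different genes were compared as CPM per kilobase of the longest coding transcript. On this scale Ccl2 was first in each medium, at 2219 ± 361 in M1 CM, 988 ± 36.4 in M2 CM, 393 ± 30.7 in TAM CM and 287 ± 13.2 in M0 CM (SD, n = 3 each). Ccl7 was second in M1 CM at 601 ± 18.9 CPM per kilobase, second in M2 CM at 572 ± 7.23 and second in M0 CM at 186 ± 1.18. In TAM CM the second place was held by Cxcl1, at 284 ± 11.9, with Ccl7 at 119.8 ± 6.81. Cxcl1 made up 32% of the summed length-scaled level of the 10 genes in TAM CM, where the M1 CM share was 13.7%, the M2 CM share 12.6% and the M0 CM share 11.2%. Ccl5 made up 10.6% in M1 CM, 1.14% in M2 CM, 2.78% in TAM CM and 2.01% in M0 CM.

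Ccl9, Cxcl2 and Ccl20 took the last 3 places in each medium. Cxcl2 reached 1.01 ± 0.142 CPM per kilobase in M1 CM and 1.03 ± 0.249 in TAM CM. Neighbours in the order whose libraries overlapped were Cxcl2 and Ccl9 in M1 CM, Ccl5 and Cxcl5 in M2 CM, and Ccl20 and Ccl9 in TAM CM. In M0 CM they were Cxcl1 and Cxcl12, Cxcl5 and Cx3cl1, and Cxcl2 and Ccl20. The length of the transcripts used by these cells was not measured, and Cxcl12 has coding transcripts of up to 5627 bases.

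**Figure D4:**
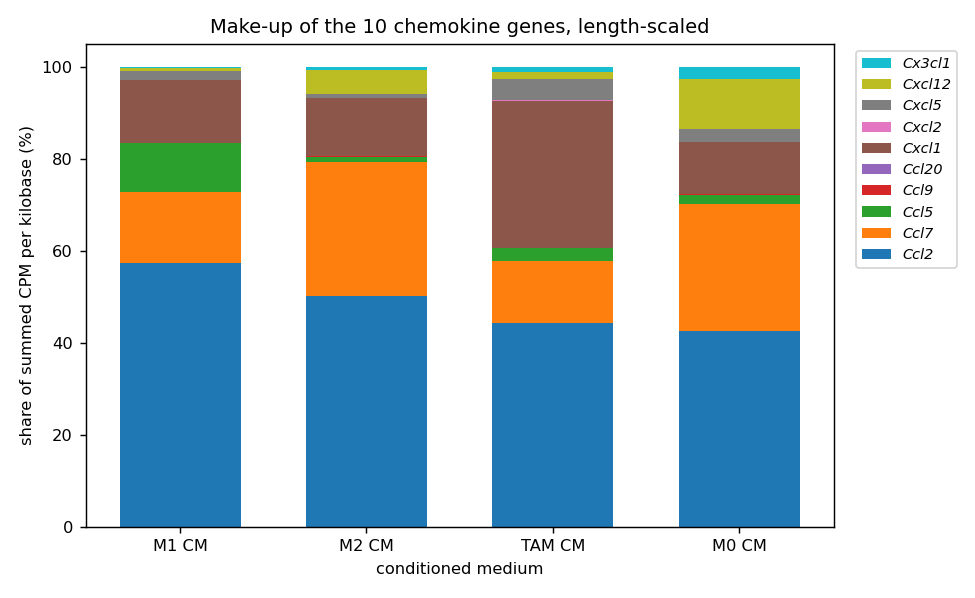
Share of each of the 10 genes in their summed CPM per kilobase of coding transcript, in percent, in each conditioned medium (group means). Ccl2 is the largest part of each bar, at 57.3% in M1 CM, 50.2% in M2 CM, 44.3% in TAM CM and 42.6% in M0 CM. The Cxcl1 part is widest in TAM CM, although the level of Cxcl1 is highest in M1 CM.

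Genes beside the members on the chromosome were mostly near 0. After Ccl2 and Ccl7, the stretch of chromosome 11 holds Ccl11, Ccl12, Ccl8 and Ccl1. Ccl8, another monocyte attractant, passed the filter and was at 3.82 ± 0.776 CPM in M1 CM, 0.515 ± 0.122 in M2 CM, 0.219 ± 0.120 in TAM CM and 0.250 ± 0.0383 in M0 CM. Ccl11, an eosinophil attractant, had 3 counts in M1 CM, 19 in M2 CM, 0 in TAM CM and 6 in M0 CM. Beside Ccl5 and Ccl9, the neighbours Ccl6, Ccl3 and Ccl4 were each below 0.4 CPM in every medium.

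On chromosome 5, the platelet chemokine gene Ppbp and the neutrophil attractant Cxcl3 passed the filter between Cxcl5 and Cxcl1. Cxcl3 had 69 counts in M1 CM, 3 in M2 CM, 19 in TAM CM and 0 in M0 CM, and it did not pass the test in M2 CM (adjusted p = 0.147). Ppbp was at 1.45 ± 0.282 CPM in M1 CM, 0.743 ± 0.279 in M2 CM, 2.43 ± 0.442 in TAM CM and 0.743 ± 0.185 in M0 CM. It rose in M1 CM (log2 fold change 0.96, SE 0.32, adjusted p = 0.00979) and in TAM CM (1.70, SE 0.30, adjusted p = 2.1e-06).

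**Figure D5:**
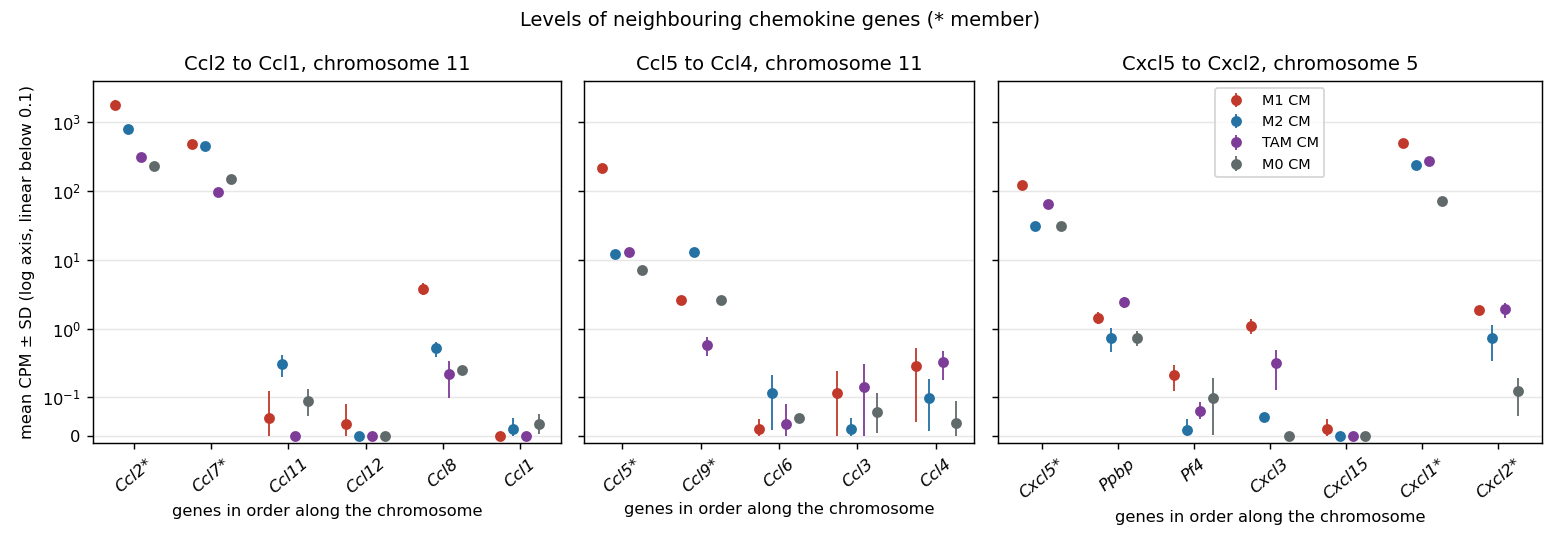
Mean CPM ± SD (n = 3) of neighbouring chemokine genes in their order along the chromosome, on a log axis that is linear below 0.1, in the 4 media; an asterisk marks the members. Ccl2, Ccl7, Cxcl1, Cxcl5 and, in M1 CM, Ccl5 stand above 30 CPM, while every gene drawn without an asterisk lies below 4 CPM.

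Of 28 other chemokine genes, 8 passed the filter. In M1 CM 7 of these rose and 0 fell (27.7% and 25.6% of all tested genes), in M2 CM 1 rose and 0 fell (21% and 18.5%), and in TAM CM 4 rose and 1 fell (35.1% and 34.9%). Cxcl3, Cxcl9 and Ccl8 passed the filter only through M1 CM, where they are high, so their rise there was set by the filter. Cxcl10, a CXCR3 ligand that attracts T cells, was at 901 ± 62.5 CPM in M1 CM, 26.2 ± 1.40 in M2 CM, 26.5 ± 3.37 in TAM CM and 23.1 ± 1.12 in M0 CM. It rose in M1 CM (log2 fold change 5.28, SE 0.08, adjusted p = 2.66e-14). The other CXCR3 ligand genes were Cxcl9, with 25096 counts in M1 CM, 8 in M2 CM, 4 in TAM CM and 4 in M0 CM, and Cxcl11, at 242 ± 13.8 CPM in M1 CM, 3.74 ± 0.408 in M2 CM, 1.26 ± 0.145 in TAM CM and 2.66 ± 0.484 in M0 CM. Cxcl16, a transmembrane chemokine, was at 22.8 ± 3.17 CPM in M1 CM, 2.80 ± 0.677 in M2 CM, 4.15 ± 0.342 in TAM CM and 2.82 ± 0.275 in M0 CM. It rose in M1 CM (log2 fold change 3.01, SE 0.14, adjusted p = 6.46e-25) and TAM CM (0.56, SE 0.17, adjusted p = 0.00336).

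The receptors through which the members act on leukocytes were mostly at or near 0. Of 24 receptor genes, 9 had no counts in any library, among them Ccr1, Ccr2, Cxcr1, Cxcr2 and Cxcr4, and 4 passed the filter. Ackr3, a scavenging receptor for Cxcl12, was at 43.9 ± 3.49 CPM in M1 CM, 20.6 ± 1.04 in M2 CM, 13.8 ± 1.32 in TAM CM and 31.3 ± 1.97 in M0 CM. It rose in M1 CM (log2 fold change 0.49, SE 0.07, adjusted p = 1.53e-08) and fell in M2 CM (-0.60, SE 0.07, adjusted p = 1.67e-09) and TAM CM (-1.19, SE 0.08, adjusted p = 6.78e-19). In M1 CM and M2 CM its direction was opposite to that of Cxcl12, and in TAM CM both fell.

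Genes of NF-kB and its feedback loop were all tested. Of 15, 13 rose and 1 fell in M1 CM, where 27.7% of all tested genes rose and 25.6% fell (median log2 fold change of the 15, 0.50). In M2 CM 9 rose and 1 fell, beside 21% and 18.5% (0.20), and in TAM CM 6 rose and 8 fell, beside 35.1% and 34.9% (-0.23). Nfkb1, which encodes the p105 precursor, rose in M2 CM (log2 fold change 1.76, SE 0.03, adjusted p = 3.9e-41), fell in TAM CM (-0.46, SE 0.03, adjusted p = 1.72e-17) and had 0.01 in M1 CM (adjusted p = 0.903). The feedback inhibitor gene Tnfaip3 was at 62.9 ± 0.578 CPM in M1 CM, 28.0 ± 1.40 in M2 CM, 11.2 ± 0.537 in TAM CM and 23.7 ± 3.10 in M0 CM. It rose in M1 CM (log2 fold change 1.41) and M2 CM (0.24) and fell in TAM CM (-1.08), as did the inhibitor gene Nfkbia (0.80 in M1 CM, 0.53 in M2 CM, -0.47 in TAM CM). Nfkbib, another inhibitor gene, rose in the 3 media (1.23 in M1 CM, 0.45 in M2 CM, 1.45 in TAM CM). Ccl7 had the directions of Tnfaip3 and Nfkbia but not those of Nfkb1 or Nfkbib, while Cxcl1 and Cxcl2 rose in TAM CM as well. Whether any of these genes act on the members was not tested.

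Of 9 genes for proteins that regulate mRNA decay, 3 rose and 5 fell in M1 CM, 5 rose and 1 fell in M2 CM, and 3 rose and 3 fell in TAM CM. The share of all tested genes called was 53.4% for M1 CM, 39.4% for M2 CM and 70% for TAM CM. Zfp36, whose protein binds AU-rich elements and promotes decay, was at 27.3 ± 2.05 CPM in M1 CM, 14.9 ± 0.701 in M2 CM, 13.2 ± 0.399 in TAM CM and 9.01 ± 0.171 in M0 CM, and rose in the 3 media. Arid5a, whose protein is known to stabilise some inflammatory mRNAs, was at 32.5 ± 2.69 CPM in M1 CM, 8.82 ± 0.902 in M2 CM, 88.2 ± 3.41 in TAM CM and 6.03 ± 0.584 in M0 CM. Its log2 fold change was 3.87 (SE 0.08, adjusted p = 7.46e-40) in TAM CM, 2.43 (SE 0.09, adjusted p = 2.79e-29) in M1 CM and 0.55 (SE 0.11, adjusted p = 3.44e-05) in M2 CM. Hnrnpd fell in M1 CM (log2 fold change -0.35) and TAM CM (-0.60). Rc3h1 fell in M1 CM (-0.31) and rose in TAM CM (0.41). Neither Hnrnpd nor Rc3h1 was called in M2 CM.

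Of 10 genes for proteases that cleave chemokines, 5 passed the filter; 2 rose and 3 fell in M1 CM, 3 rose and 1 fell in M2 CM, and 1 rose and 4 fell in TAM CM, beside the same shares of all tested genes (53.4% for M1 CM, 39.4% for M2 CM, 70% for TAM CM). Adam10, a sheddase of Cx3cl1, was at 108 ± 3.48 CPM in M1 CM, 187 ± 8.53 in M2 CM, 91.7 ± 3.63 in TAM CM and 160.1 ± 3.17 in M0 CM. It fell in M1 CM (log2 fold change -0.56) and TAM CM (-0.80) and rose in M2 CM (0.22). Of 12 myeloid growth factor and cytokine genes 8 were tested, and 7 rose and 1 fell in M1 CM, 2 rose and 0 fell in M2 CM, and 5 rose and 1 fell in TAM CM, beside those shares. Of the 8, Csf3 and Il6 passed the filter only through M1 CM, Il24 only through M2 CM and Tnf only through TAM CM, so a difference in them was set by the filter. Il24 had 30 counts in M1 CM, 3423 in M2 CM, 1 in TAM CM and 5 in M0 CM. Lif, a cytokine of the interleukin-6 family, was at 60.4 ± 4.52 CPM in M1 CM, 39.9 ± 0.395 in M2 CM, 54.1 ± 0.919 in TAM CM and 17.1 ± 0.333 in M0 CM, and rose in the 3 media. Csf3, the neutrophil growth factor gene, was at 7.67 ± 0.449 CPM in M1 CM, 0.221 ± 0.138 in M2 CM, 0.548 ± 0.0602 in TAM CM and 0.271 ± 0.136 in M0 CM. Csf1, the macrophage growth factor gene, was at 1422 ± 27.1 CPM in M1 CM, 1288 ± 25.3 in M2 CM, 2015 ± 86.0 in TAM CM and 1319 ± 8.23 in M0 CM, and its log2 fold change in TAM CM was 0.61 (SE 0.03, adjusted p = 2.87e-24).

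Likeness of profiles was measured as the root-mean-square difference of log2 CPM over the 12 libraries, each gene centred on its own mean. Among the 9 members the closest pair was Ccl2 and Ccl7 (0.56), followed by Cxcl1 and Cxcl5 (0.61) and Cxcl1 and Cxcl2 (0.63). The farthest pair was Ccl5 and Cxcl12 (2.81). Of all genes with at least 1 CPM on average, C3 (0.34), Slc2a6 (0.38) and Upp1 (0.40) were closest to Ccl2, and Socs1 (0.23), C3 (0.31) and Slc2a6 (0.31) to Ccl7. Closest to Ccl5 were H2-T24 (0.40), Cxcl10 (0.44) and Bst2 (0.44). Closest to Ccl9 were Slc6a4 (0.33), Tnfrsf11b (0.41) and Aqp1 (0.58).

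Cxcl1 was nearest to Sema3c (0.15), which was at 209 ± 13.9 CPM in M1 CM, 115 ± 8.42 in M2 CM, 119 ± 3.07 in TAM CM and 37.2 ± 0.463 in M0 CM, and then to Serpinb9b and Upp1 (0.31 each). Cxcl2 was nearest to Oasl1 (0.51), Itga2 (0.51) and Il1rl1 (0.54). Cxcl5 was nearest to Snx10 (0.09), at 140.3 ± 4.46 CPM in M1 CM, 37.9 ± 1.07 in M2 CM, 70.1 ± 3.11 in TAM CM and 36.4 ± 2.54 in M0 CM, and then to B2m (0.13) and Agrn (0.16). Cxcl12 was nearest to Dkk3 (0.22), Col6a2 (0.25) and Nedd9 (0.30), and Cx3cl1 to Foxp1 (0.07), Add1 (0.07) and Selenon (0.08). These values describe likeness over 4 media and carry no test.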

How the data were processed

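RNA of 12 SCC7 libraries was sequenced from mRNA libraries made by a standard Illumina protocol, per the labels' protocols. The authors deposited raw read counts per Ensembl gene, with no scaling. The submitters' processing notes name HISAT2 2.0 and mm10. Not given in the sources used here are the counting tool, its annotation and its strand setting, so overlapping and antisense genes cannot be separated. Libraries were grouped by their titles. Gene symbols and coordinates came from GENCODE M21 (GRCm38), and 55227 of 55487 identifiers matched. The analysis used edgeR 4.0.16 in R 4.3.3: filterByExpr on the groups, TMM, glmQLFit (robust) with a mean per group, glmQLFTest and Benjamini-Hochberg adjustment over the 14509 genes tested, at a threshold of 0.05. The genes removed held 0.0815% of counts. Each standard error was taken as the log2 fold change divided by the root of F, with normal 95% intervals. They understate the counting error of groups well under 1 CPM. Log2 CPM for profiles used a prior count of 2. The members and gene lists were chosen with earlier results of these data known. The text accounts for all members, names genes of each list from the 4 tested ones with the smallest p in any medium against M0 CM (not every one of these is printed), and the 3 genes nearest to each member, and adds their chromosomal neighbours. The steps were tested on simulated counts for M1 CM against M0 CM. Of 50 genes changed at each size, 27 were recovered at 1.25-fold, 41 at 2-fold and 47 at 4-fold. Far fewer genes were changed there than were called in these data, so scaling under a broad change was not tested. The alternatives were DESeq2 1.42.0, other scalings and filters, fits of 2 groups, the replicate number as a term, and each library left out. No pair of replicates was identical, and the chi-square per degree of freedom of a pair ran from 2.01 to 5.16.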

Additional observations from a re-analysis of the deposited data

How the results depend on the processing

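The counts of members called, and of all genes called, in the 6 comparisons stayed within 1.5 times their values under each alternative listed, and no called member changed direction. Of 702 recomputed log2 fold changes of single members, 5 changed their side of the threshold: TAM CM against M2 CM for Cxcl1, with library sizes alone (0.151, adjusted p = 0.0527) or without TAM CM replicate 2 (0.180, adjusted p = 0.0608); M2 CM against M1 CM for Ccl7, with a filter of 1 CPM in 3 libraries (-0.075) or without M1 CM replicate 2 (-0.097); and Cx3cl1 there without M2 CM replicate 3 (0.151). With no filter on low counts Ccl20 entered the edgeR test, on the few counts given above. It was higher in TAM CM than in M0 CM (log2 fold change 4.183, adjusted p = 0.00076) and in M1 CM than in M0 CM (3.092, adjusted p = 0.0482). It was also higher in TAM CM than in M2 CM (6.03, adjusted p = 8.11e-05) and lower in M2 CM than in M1 CM (-4.939, adjusted p = 0.00673). Ccl20 was not called in M2 CM against M0 CM (adjusted p = 0.609) or TAM CM against M1 CM (adjusted p = 0.344). Library sizes alone shifted the split of all called genes. The share of calls that were higher was 41% in M1 CM, in place of 52%, and 37.6% in M2 CM, in place of 53.2%, and the median of all genes moved by less than 0.1.

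The replicate numbers of the titles gave no strong pairing of the libraries. Deviations from the group means correlated between -0.029 and 0.051 for same-numbered libraries and between -0.052 and 0.052 for the others. Yet 8 of 12 libraries correlated best with one of their own number, which most libraries of the other media did not share. With the replicate block, M1 CM against M0 CM had 4061 genes higher and 3745 lower, in place of 4023 and 3719, and the calls of the members were the same as without it. Depth limits Ccl20 in each medium, Cxcl2 in M0 CM and Ccl9 in TAM CM.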
